A study of Mus musculus with 12 samples.

Results

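The genes described here encode the nuclear subunits of respiratory complex I, measured in the caudate putamen, the dorsal striatum, of male C57BL/6J mice aged 12 weeks. Members were taken by name: each probe of the Illumina bead array whose single annotated gene symbol begins with Ndufa, Ndufb, Ndufc, Ndufs or Ndufv and a number, and which was detected (p under 0.05) on 6 or more of 12 arrays. Of 51 probes with such a symbol, 47 probes of 34 genes passed, among 45281 probes on the array and 20296 tested ones. In the ethanol group (n = 6) the mothers had drunk 10% (v/v) ethanol by choice from 0.5 to 8.5 days after mating, and the control group (n = 6) is marked as control in its titles and treatment field. The records of both groups carry the same text on maternal ethanol, and what the control mothers drank is not given in the sources used here. All mice shared strain, sex and age, and each title holds 1 of 2 long numbers, each shared by 3 samples of each group. These numbers are read here as array chips, called chip 1 and chip 2, although no label says what they are. Nothing says whether the samples came from separate mice or litters, so p-values measure only the spread between these samples, which may be technical. Samples are named by group and replicate number.

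Complex I, the NADH to ubiquinone oxidoreductase, takes electrons from NADH at the start of the mitochondrial respiratory chain and pumps protons across the inner membrane. It has a matrix arm, made of an N module that oxidises NADH and a Q module that passes electrons over iron-sulphur clusters to ubiquinone, and a membrane arm that pumps protons. Its catalytic core is encoded partly by the nucleus and partly by mitochondrial DNA, and the remaining nuclear subunits are called accessory. Striatal projection neurons have a high demand for oxidative energy, and inhibitors of the respiratory chain damage the striatum in animals.

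The selected set differs from the complex in a few members. Ndufa4 carries a complex I name and is now assigned to complex IV, and Ndufs5-ps is annotated as a pseudogene, so its signal cannot be set to a protein. The single Ndufs1 probe was detected on 0 arrays and is not a member. The nuclear core subunits measured were 5 (Ndufs3, Ndufs7, Ndufs8, Ndufv1 and Ndufv2). Second probes of Ndufb2 and Ndufb8 (0 arrays each) and of Ndufb11 (1 array) also failed, and those genes stayed in through another probe. The dimmer Ndufc2 probe, detected on 6 arrays, lay at the detection limit, and the Ndufb11 probe was detected on 11. The other 45 members were detected on all 12.

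Levels are log2 intensities after background correction and quantile normalization, and differences are ethanol minus control. A probe's level also depends on its own sequence, so levels are compared between samples and not between probes. In tissue RNA, fewer cells of a type and less RNA per cell cannot be told apart. Markers of striatal projection neurons were present, with 8 of 11 listed genes tested and each of the 8 detected on 12 arrays, Drd1 and Ppp1r1b among them. Some arrays stood apart in markers of other cells, given as the mean over a list of each gene's deviation from its own mean. Cortical neuron genes (3 of 6 tested) stood at 1.17 in control 2 and 0.64 in ethanol 4, against -0.35 to -0.00 in the other samples. The genes did not all move together. Slc17a7 and Neurod2, detected on 9 and 7 arrays, were highest in control 2 (levels of 8.17 and 6.69). Cux2 was highest in ethanol 4 (7.52), and its 6.72 in control 2 was below both group means (6.84 ethanol, 6.81 control). Thalamic genes (4 of 5 tested) stood at 0.85 in ethanol 3 and 0.91 in ethanol 4, against -0.45 to 0.24. Slc17a6 and Prkcd were highest in these arrays, while Tcf7l2 was highest in control 4 (8.29). Ramp3 was highest in ethanol 3 (7.03), and in ethanol 4 (6.72) it was near its control mean (6.72). Oligodendrocyte genes (6 of 7 tested) stood at 0.65 in control 4, 0.55 in ethanol 3 and -0.73 in ethanol 4, against -0.18 to 0.15.

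The first comparison asked whether the genes of complex I differed between ethanol-exposed and control striatum. Neither direction held a complex I probe past the threshold. Among the 47, limma's test with Benjamini-Hochberg adjustment called 0 at 0.05 (smallest adjusted p = 0.854), as it called 0% of all tested probes. At an unadjusted p under 0.05 there were also 0 members, against 5.79% of all tested probes, and leaving out ethanol 4 gave 4 members, against 5.34% of all in that fit. Probes whose ethanol and control values did not overlap numbered 0 among the members, against 0.266% of all.

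Signs were uneven and the differences small. The log2 difference was above 0 for 34 of 47 probes, against 50.2% of all tested probes, with a median of 0.03 against 0.00. Under median scaling, which puts the median of all probes at -0.02, 27 of 47 were above 0 and the members' median was 0.02. Leaving out ethanol 3 also gave 27, with a median of 0.00, and leaving out control 2 gave 40. The members' differences ran from -0.27 to 0.29, and 35 of 47 lay within 0.1 of 0. Intervals at 95% stayed inside a 1.5-fold change up or down for 45 of 47 probes and inside a 2-fold change for all 47, where 91.9% and 99.5% of all tested probes did. The exceptions at 1.5-fold were Ndufb11, whose interval reached down to 0.654-fold, and the dimmer Ndufa5 probe, which reached up to 1.52-fold.

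**Figure D1:**
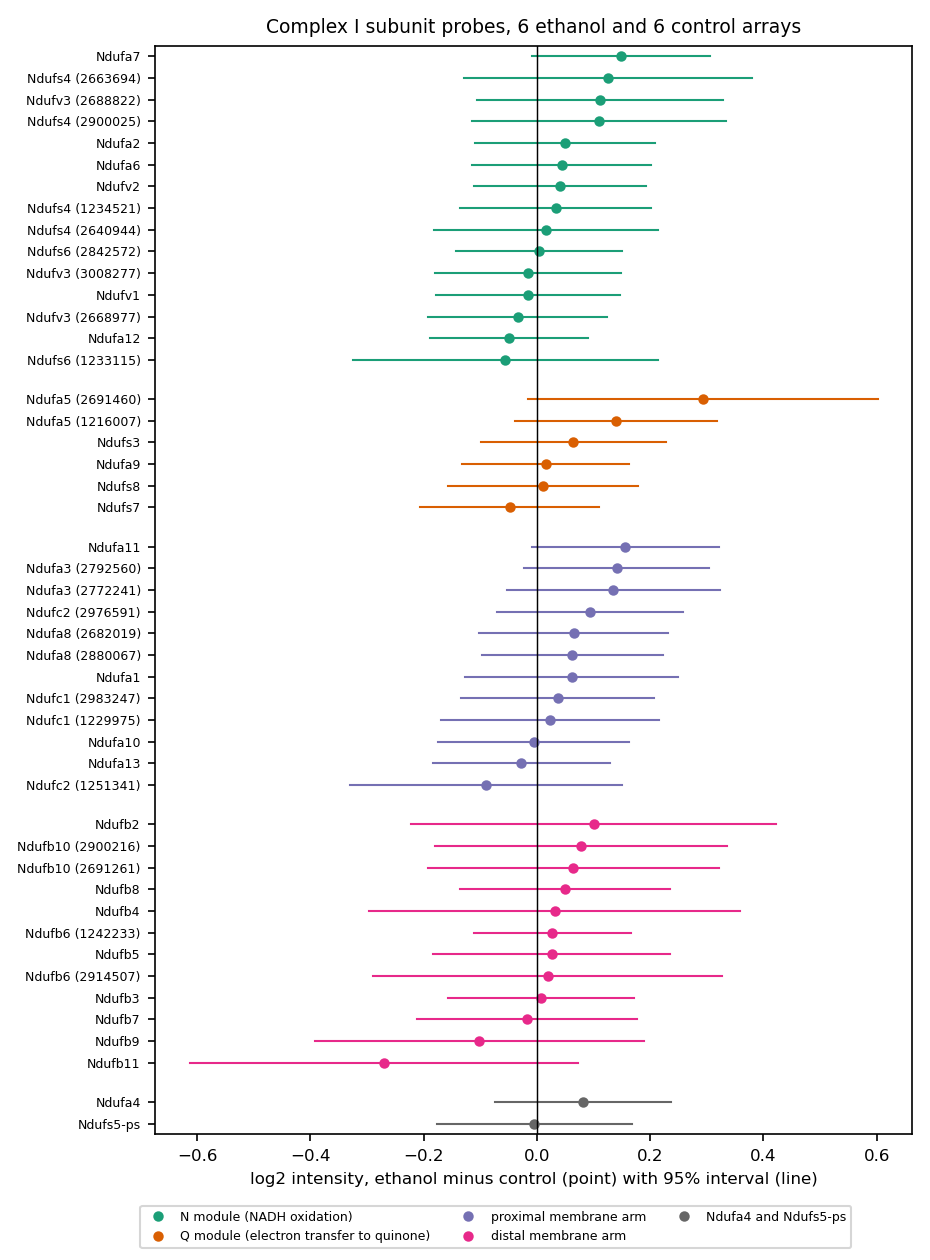
Log2 difference, ethanol minus control, of each of the 47 complex I probes (point) with its 95% interval from limma's fit (line), coloured by module, 6 arrays per group. Numbers in brackets tell apart probes of 1 gene. Every interval includes 0, and those reaching farthest from it belong to Ndufb11 (-0.61) and to the dimmer probe of Ndufa5 (0.60).

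Promoter sequences are shown from RefSeq on GRCm38.p6 for 3 genes with a probe among the 4 of smallest p, Ndufa11 and Ndufa5 as examples with an NRF1 match and Ndufa3 as one without. Windows of 300 bases, from 250 before to 50 after a transcription start, were held for 31 of the 34 genes (33 windows). They were searched on both strands for letters bound by factors of mitochondrial genes, namely NRF1 (GCGCA, any base, then GCGC), ETS factors such as GABPA (CCGGAAG), YY1 (AAGATGGCG) and ERR receptors (TCAAGGTCA), none of which contains another. Capitals mark the NRF1 letters in the bases before the start, 5′ to 3′ along the gene. The 250 bases before the start are printed for Ndufa11 and Ndufa5, and for Ndufa3 a shorter stretch of 224 bases. Ndufa11 lies on chromosome 17 (chr17:56717512-56717761, plus strand), Ndufa5 on chromosome 6 (chr6:24527691-24527940, minus strand) and Ndufa3 on chromosome 7 (chr7:3617123-3617346, plus strand).
Ndufa11: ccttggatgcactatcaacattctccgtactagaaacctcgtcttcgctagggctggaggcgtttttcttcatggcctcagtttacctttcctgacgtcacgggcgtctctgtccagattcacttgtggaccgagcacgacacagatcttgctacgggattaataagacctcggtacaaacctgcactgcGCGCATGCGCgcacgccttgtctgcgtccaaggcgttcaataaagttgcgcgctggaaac
Ndufa5: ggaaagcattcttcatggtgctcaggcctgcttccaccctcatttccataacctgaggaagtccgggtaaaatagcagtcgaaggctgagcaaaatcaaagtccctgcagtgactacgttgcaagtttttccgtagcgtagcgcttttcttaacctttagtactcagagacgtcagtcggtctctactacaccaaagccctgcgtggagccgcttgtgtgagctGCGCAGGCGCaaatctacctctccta
Ndufa3: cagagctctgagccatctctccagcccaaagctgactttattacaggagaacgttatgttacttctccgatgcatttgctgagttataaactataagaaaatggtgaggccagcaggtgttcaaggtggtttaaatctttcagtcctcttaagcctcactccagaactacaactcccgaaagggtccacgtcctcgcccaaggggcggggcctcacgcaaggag
The NRF1 letters began 60 bases before the start in Ndufa11 and 26 bases before it in Ndufa5. None of the 4 motifs was in the Ndufa3 window.

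Across the set, NRF1 letters were in 7 of 33 windows (21.2%), those of Ndufa5, Ndufa6, Ndufa8, Ndufa11, Ndufb4 and Ndufs6, against 4.60% of 32851 windows of all genes. Ndufa5 counts with 2 overlapping windows that hold the same match. In Ndufb4 they occurred at 3 places, beginning 191, 79 and 22 bases before the start. ETS letters were in 4 member windows (12.1% against 8.86%), those of Ndufb6, Ndufb7, Ndufs3 and Ndufs8. ERR letters were in 0 windows against 0.423%. YY1 letters were in 5 windows (15.2% against 1.40%), in each on the gene's own strand and 23 to 44 bases after the start. These 5 stretches are shown side by side because the match stands at nearly the same place in each, with the YY1 letters in capitals. They lie at chr6:126849101-126849121 (Ndufa9, minus strand), chr3:51408919-51408939 (Ndufc1, minus), chr13:114388045-114388065 (Ndufs4, minus), chr13:73328435-73328455 (Ndufs6, minus) and chr10:80249467-80249487 (Ndufs7, plus).
Ndufa9: tgggagAAGATGGCGgccgcc
Ndufc1: cggaacAAGATGGCGccgtcc
Ndufs4: tacaggAAGATGGCGgcggtc
Ndufs6: accggcAAGATGGCGgcggtg
Ndufs7: gaggccAAGATGGCGgcgctg
Matches describe the letters only, and binding was not measured. The YY1 letters include ATG, and whether this is the coding start of these genes was not looked up.

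Genes of the Q module, which hands electrons to ubiquinone, included the probe with the smallest p of the set. Ndufa5, an accessory subunit of this module, had 2 tested probes. Its dimmer probe ran from 7.23 to 8.10 in controls (median 7.84) and from 7.66 to 8.34 in ethanol-exposed samples (median 8.11). Control 4 was the lowest of its group and ethanol 4 the lowest of the other, and 5 of 6 ethanol values lay above the control median while the ranges overlapped. The log2 difference was 0.29 (SE 0.14, adjusted p = 0.854 in limma's test), and it was 0.18 without control 4 and 0.19 without background correction or in the deposited normalized table. Its brighter probe ran from 12.55 to 12.90 in controls (median 12.74) and from 12.69 to 13.03 in ethanol-exposed samples (median 12.85), a difference of 0.14 (SE 0.08). Both probes had the same sign, with control 4 and ethanol 4 lowest in their groups on both. The core subunits of the module had smaller differences. Ndufs3 had a difference of 0.06 (SE 0.08) and Ndufs8 of 0.01 (SE 0.08). Ndufs7, which carries the last iron-sulphur cluster before ubiquinone, ran from 12.48 to 12.75 in controls (median 12.71) and from 12.51 to 12.73 in ethanol-exposed samples (median 12.62), a difference of -0.05 (SE 0.07). Ndufa9, at the junction with the membrane arm, had 0.02 (SE 0.07). Over the module 5 of 6 probes were above 0, with a median of 0.04.

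In the N module, where NADH is oxidised, 10 of 15 probes of 9 genes were above 0, with a median of 0.03. Ndufa7, an accessory subunit, ran from 11.87 to 12.08 in controls (median 12.00) and from 12.06 to 12.31 in ethanol-exposed samples (median 12.09). Every ethanol value lay above the control median, and the ranges overlapped by a narrow margin, ethanol 6 being the lowest exposed sample and control 1 the highest control. The difference was 0.15 (SE 0.07, adjusted p = 0.854 in limma's test). Ndufa12, another accessory subunit, ran from 11.76 to 11.92 in controls (median 11.80) and from 11.69 to 11.83 in ethanol-exposed samples (median 11.77), a difference of -0.05 (SE 0.07). The core subunits that bind the flavin and a neighbouring iron-sulphur cluster, Ndufv1 and Ndufv2, had -0.02 (SE 0.08) and 0.04 (SE 0.07). The accessory genes Ndufa2 and Ndufa6 had 0.05 (SE 0.07) and 0.04 (SE 0.07).

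Further N module genes had several probes. The 4 probes of Ndufs4, a small subunit whose loss causes a Leigh-like brain disease in mice, differed by 0.02, 0.03, 0.11 and 0.13, all of one sign. The probe at 0.11 ran from 10.64 to 10.89 in controls and from 10.39 to 11.03 in ethanol-exposed samples, where ethanol 4 stood alone below 10.83. Ndufs6, a zinc-binding subunit, differed by 0.00 (SE 0.07) on its brighter probe and -0.06 (SE 0.13) on its dimmer one. Its brighter probe ran from 12.93 to 13.19 in controls (median 13.05) and from 12.98 to 13.13 in ethanol-exposed samples (median 13.07). Its dimmer probe ran from 8.38 to 9.05 in controls (median 8.71) and from 8.36 to 8.81 in ethanol-exposed samples (median 8.70), so that on both the exposed values lay almost wholly inside the control range. Ndufv3 has long and short isoforms, and its 3 probes carry 2 RefSeq accessions in the annotation. The probe assigned to NM_001083891 ran from 12.26 to 12.54 in controls (median 12.28) and from 12.23 to 12.42 in ethanol-exposed samples (median 12.27), a difference of -0.03 (SE 0.07). The brighter probe assigned to NM_030087 ran from 11.87 to 12.20 in controls (median 12.08) and from 11.98 to 12.22 in ethanol-exposed samples (median 12.04), a difference of -0.02 (SE 0.08). The dimmer NM_030087 probe ran from 6.06 to 6.42 (median 6.36) and from 6.09 to 6.60 (median 6.40), a difference of 0.11 (SE 0.10). Probes of that accession thus had opposite signs, and the gap between them was not tested.

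The proximal membrane arm, next to the matrix arm, had 9 of 12 probes above 0 and a median of 0.06, with 0 past the threshold as in each module. Ndufa11, an accessory membrane subunit, ran from 11.39 to 11.62 in controls (median 11.53) and from 11.48 to 11.80 in ethanol-exposed samples (median 11.67). Ethanol 6 was the lowest exposed sample and the other 5 lay above the control median. The difference was 0.16 (SE 0.08, adjusted p = 0.854 in limma's test), with 0.19 on chip 1 and 0.13 on chip 2. Ndufa3, a small membrane subunit, had 2 probes of the same sign. The brighter one ran from 12.47 to 12.75 in controls (median 12.51) and from 12.52 to 12.78 in ethanol-exposed samples (median 12.70), a difference of 0.14 (SE 0.08). Control 1 stood apart from the other controls, which reached 12.55 at most, and 6 of 6 ethanol values lay above the control median. The dimmer one ran from 11.93 to 12.30 in controls (median 12.00) and from 12.01 to 12.33 in ethanol-exposed samples (median 12.24), a difference of 0.13 (SE 0.09), again with control 1 the highest control.

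Ndufc2, an accessory subunit, differed in sign between its probes. The brighter one ran from 12.23 to 12.49 in controls (median 12.35) and from 12.30 to 12.55 in ethanol-exposed samples (median 12.50), a difference of 0.09 (SE 0.08). The dimmer one, near background, ran from 5.01 to 5.63 in controls (median 5.33) and from 5.06 to 5.52 in ethanol-exposed samples (median 5.29), a difference of -0.09 (SE 0.11). Both probes of Ndufa8 had 0.06, and those of Ndufc1 had 0.02 and 0.04. Ndufa1, an X-linked subunit needed for assembly, had 0.06 (SE 0.09). Ndufa10 had -0.01 (SE 0.08). Ndufa13, also known as the cell death regulator GRIM-19, had -0.03 (SE 0.07).

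The distal membrane arm, built mainly of Ndufb subunits, had 9 of 12 probes above 0 and a median of 0.03. It held the probe with the smallest p among those below 0. Ndufb11, an X-linked accessory subunit, ran from 5.99 to 6.30 in controls (median 6.23) and from 5.21 to 6.33 in ethanol-exposed samples (median 5.95). Ethanol 5 was far the lowest while ethanol 6 was above every control, so the wider spread lay in the exposed group. The difference was -0.27 (SE 0.16, adjusted p = 0.860 in limma's test), and its 95% interval, from -0.61 to 0.07, was the widest of the set. It was -0.13 without ethanol 5, -0.17 with a larger offset (50), -0.08 without background correction and -0.09 in the deposited normalized table. Ndufb9 ran from 8.73 to 9.40 in controls (median 8.97) and from 8.42 to 9.09 in ethanol-exposed samples (median 9.02), a difference of -0.10 (SE 0.14). Ethanol 4 was the lowest sample and control 6 the highest, and the medians were ordered the other way to the means. Without ethanol 4 the difference was -0.01, and without control 6 it was -0.02. Ndufb2 had 0.10 (SE 0.15) and Ndufb8 0.05 (SE 0.09). The 2 probes of Ndufb10 had 0.06 and 0.08, and those of Ndufb6 had 0.02 and 0.03. Ndufb3, Ndufb4, Ndufb5 and Ndufb7 lay between -0.02 and 0.03.

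**Figure D2:**
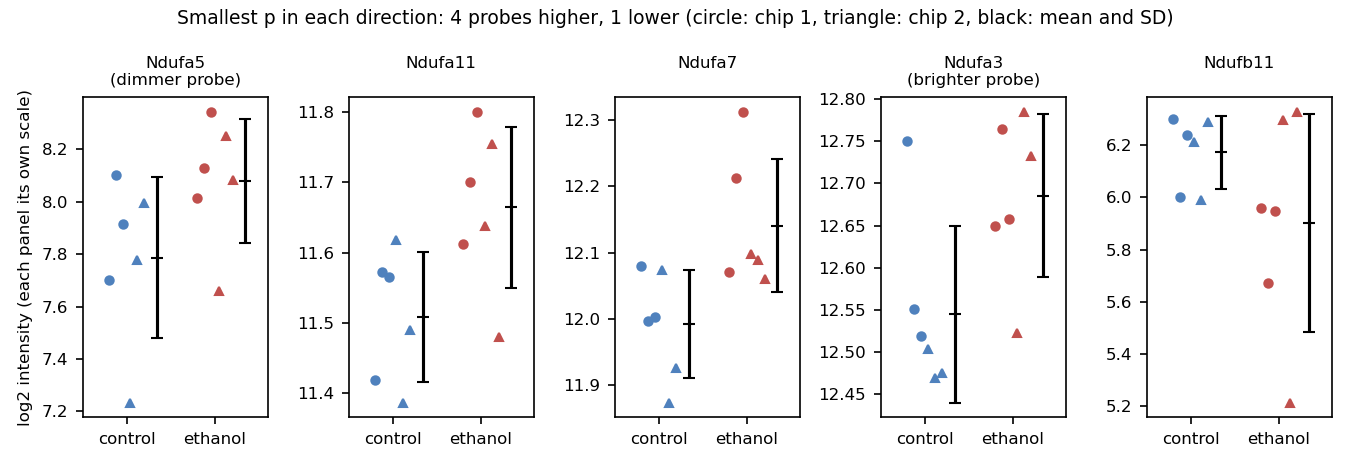
Log2 intensity (y axis, a separate scale per panel) of the 4 probes with the smallest p above 0 and the 1 with the smallest p below 0, by group, with 6 control and 6 ethanol samples as points (circles chip 1, triangles chip 2) and the mean ± SD in black. The groups overlap in every panel, and for Ndufb11 the ethanol samples spread from 5.21 to 6.33 around controls at 5.99 to 6.30.

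Genes with several probes give a check of signs within a gene. Of 10 such genes, 7 had all their probes above 0 and 3 had probes of both signs (Ndufc2, Ndufs6 and Ndufv3). Counting each gene once by its brightest probe, 24 of 34 genes were above 0, with a median of 0.03. The 5 core genes had 3 above 0 and a median of 0.01, and the 40 accessory probes 30 above 0 and a median of 0.04. Ndufa4, now placed in complex IV, had 0.08 (SE 0.07), and Ndufs5-ps had -0.00 (SE 0.08). The median standard error of the members was 0.0787 against 0.113 over all tested probes, and for the 13 members with a group mean under 10 it was 0.126.

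The next comparison was between samples, over all members at once. For each sample the members' levels were averaged after subtracting each probe's mean over the 12 arrays. Ethanol samples 1 to 6 had mean deviations of 0.05, 0.04, 0.13, -0.11, -0.01 and 0.01 in log2 units. Control samples 1 to 6 had -0.01, 0.08, 0.01, -0.03, -0.12 and -0.03. Ethanol 3 and control 2 were the highest of their groups, ethanol 4 and control 5 the lowest, and the groups overlapped over most of their range. The group means, 0.02 ± 0.08 and -0.02 ± 0.06 (SD, n = 6), were 0.04 apart, less than the SD within either group. In ethanol 3, 42 of 47 probes were above their own mean, in ethanol 4 only 10 and in control 5 only 6. Ethanol 4 was the lowest exposed sample for 26 probes, ethanol 3 the highest for 23, and control 5 the lowest control for 21.

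Markers were set beside these sample levels. Ethanol 3, high in complex I genes, stood at -0.31 for striatal projection neuron genes, where the other samples lay between -0.13 and 0.08. Ethanol 4, low in complex I genes, stood at 0.04 for them, and control 5 at -0.01. Microglia genes (7 of 7 tested) were on average highest in ethanol 3 (0.28) and lowest in ethanol 4 (-0.22), with control 5 at -0.02. Single microglia genes departed from this mean. Cx3cr1, Csf1r and Tmem119 were highest in control 4, control 6 and control 2. Cx3cr1 and C1qa were lowest in ethanol 6, P2ry12 in control 1 and Tmem119 in control 5. Endothelial and mural genes (6 of 6 tested) were highest on average in ethanol 3 (0.42). They were lowest in ethanol 4 (-0.33) and control 5 (-0.32), as the complex I genes were. Not every gene of that list followed its mean. Cldn5 was highest in ethanol 1 and lowest in control 6, and Rgs5 was highest in ethanol 2 and lowest in ethanol 6. Of the 6 endothelial and mural genes 5 were above 0 in the group comparison, with a median difference of 0.21 and 0 past the threshold. The list stood at 0.10 ± 0.28 in the exposed group (range -0.33 to 0.42) and at -0.10 ± 0.17 in controls (range -0.32 to 0.10; SD, n = 6), a gap of 0.20 beside 0.04 for the complex I probes. The part of these cells in the spread of the members and in their group difference was not tested.

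**Figure D3:**
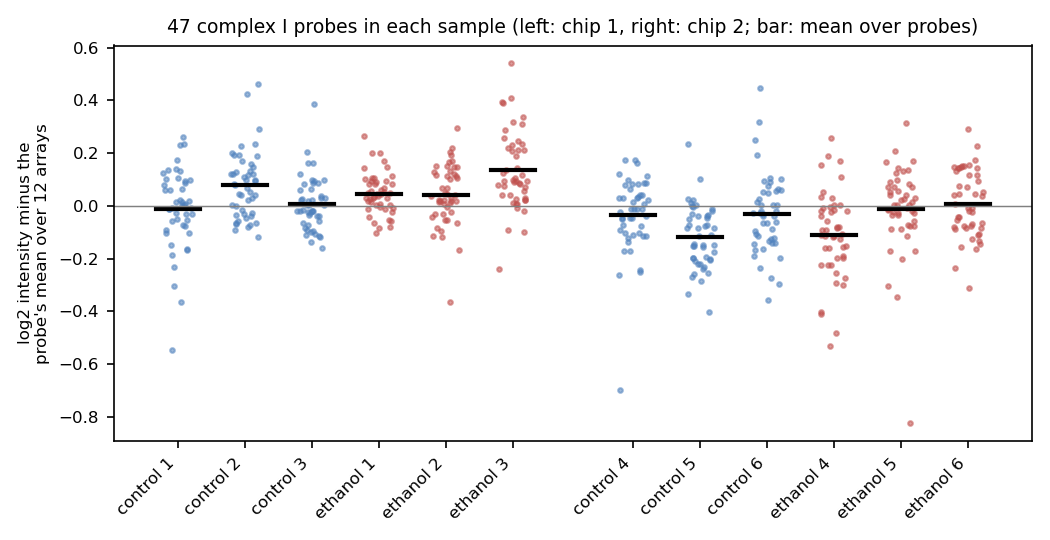
Log2 intensity of each of the 47 complex I probes minus its mean over the 12 arrays (y axis, points) in each sample (x axis, blue control and red ethanol), with the mean over probes as a bar. Chip 1 samples, on the left, lie between -0.01 and 0.13, and chip 2 samples, on the right, between -0.12 and 0.01.

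Chip moved with the members more evenly than group did. With group in the fit, 44 of 47 probes were lower on chip 2 than on chip 1, against 48.9% of all tested probes, with a median of -0.08 against 0.00. For chip, limma called 0 members after adjustment (0.00985% of all tested probes), with a smallest adjusted p of 0.167, and 6 members had an unadjusted p under 0.05, against 9.93% of all tested probes. All 15 N module probes and all 12 of the proximal arm were lower on chip 2. The count was 43 or 44 under each of 5 other normalizations. Most genes of the other respiratory complexes, each by its brightest probe, were also lower on chip 2. They numbered 7 of 7 for complex II with its assembly factors, 6 of 7 for complex III, 8 of 11 for complex IV and 11 of 13 for ATP synthase. Each chip carried 3 samples of each group. What else differed between the chips was not tested.

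The last comparison asked whether the group difference was alike on both chips. On chip 1 alone 33 of 47 members were above 0 with a median of 0.05, and on chip 2 alone 28 with a median of 0.03. The modules differed in this. In the N module 6 of 15 probes were above 0 on chip 1 (median -0.01) and 10 on chip 2 (0.04). In the Q module 6 of 6 were above 0 on chip 1 (0.07) and 3 on chip 2 (-0.00). Of 12 probes each, the proximal arm had 10 and 8, and the distal arm 9 and 6. Members above 0 on both chips numbered 19, against 23.1% of all tested probes, and members below 0 on both numbered 5, against 23.1%. Groups of 3 did not overlap for 7 members on chip 1 (12.6% of all tested probes), 4 of them with ethanol above (6.17%), and for 4 members on chip 2 (16.3%), 2 of them with ethanol above (8.46%). Ndufa5, Ndufa11, Ndufa7 and Ndufa3 were above 0 on both chips for each of their probes, and Ndufb11 was below 0 on both (-0.32 and -0.22). For Ndufb9 the differences were 0.11 and -0.32, and for the dimmer Ndufc2 probe 0.18 and -0.36. The group by chip term in limma called 0 members after adjustment (0% of all tested probes), with a smallest adjusted p of 0.415. At an unadjusted p under 0.05 it held 1 member, the dimmer Ndufc2 probe, against 9.98% of all.

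**Figure D4:**
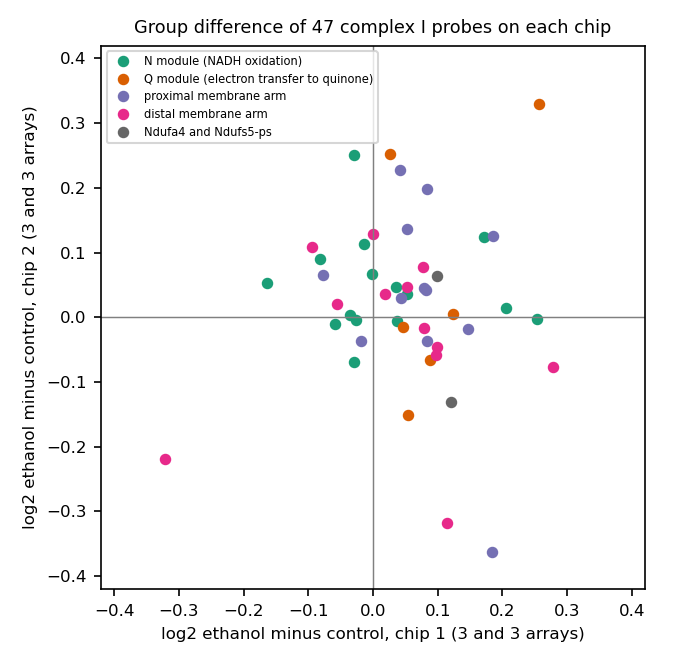
Log2 difference, ethanol minus control, of each of the 47 complex I probes on chip 1 (x axis, 3 and 3 arrays) and on chip 2 (y axis, 3 and 3 arrays), coloured by module. Of the points, 19 lie above 0 on both chips and 5 below 0 on both.

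Genes that work with these subunits were read from pathway lists, by the brightest probe of each gene. Complex I assembly factors, which build the complex and are not part of it, had 9 of 16 tested genes above 0 and a median of 0.00, with 0 past the threshold. Their smallest p belonged to Dmac1, which acts in assembly of the distal arm, at 0.10 (SE 0.07), and Ndufaf5, which modifies Ndufs7, at 0.06 (SE 0.07). Ndufab1, the mitochondrial acyl carrier protein that is also a subunit, has a symbol outside the naming rule and had 0.03 (SE 0.07).

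Subunits encoded by mitochondrial DNA had 1 of 5 tested genes above 0 and a median of -0.03. ND5 ran from 6.34 to 7.83 in controls and from 7.31 to 8.13 in ethanol-exposed samples, with control 4 and control 6 far below the rest. Its difference was 0.48 (SE 0.28). ND6, encoded on the other DNA strand, ran from 7.29 to 8.01 in controls, with control 4 the highest, and from 7.32 to 7.50 in ethanol-exposed samples. Its difference was -0.19 (SE 0.10). The adjusted p of the 5 lay between 0.854 and 0.990 in limma's test. ND1, ND4 and ND4L had -0.10 (SE 0.08), -0.02 (SE 0.08) and -0.03 (SE 0.15).

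Other respiratory complexes had small differences of the same kind. Complex II, counted with its assembly factors Sdhaf1 to Sdhaf4, had 6 of 7 tested genes above 0 (median 0.05). The count was 4 of 7 for complex III (0.04), 10 of 11 for complex IV (0.04) and 12 of 13 for ATP synthase (0.03). Over all tested probes 50.2% were above 0. For complexes II, III and IV and ATP synthase the counts were 7, 5, 11 and 9 on chip 1 alone. On chip 2 alone they were 3, 5, 6 and 8. None of these genes passed adjustment, and 0 had an unadjusted p under 0.05 in limma's test. Differences between these lists and complex I were not tested. Sdhc, a membrane anchor of complex II, had 0.12 (SE 0.09), and Sdhaf3, an assembly factor of that complex, had 0.20 (SE 0.13). In complex III, Uqcrh had 0.13 (SE 0.08) and Uqcrq 0.15 (SE 0.10). Cox7a2, a complex IV subunit, had 0.22 (SE 0.11). The isoform Cox4i2, near background and detected on 6 of 12 arrays, had -0.25 (SE 0.17). In ATP synthase, Atp5l had 0.12 (SE 0.08) and Atp5o 0.10 (SE 0.08).

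A list of citric acid cycle enzymes and related enzymes (Pdha1, Pdhb, Mdh1 and Got2) had 8 of 14 above 0 and a median of 0.01. In it Idh3g had 0.13 (SE 0.07) and Dlst -0.09 (SE 0.08). Regulators of mitochondrial biogenesis had 6 of 11 above 0 and a median of 0.00. Among them Tfam, which packs and transcribes mitochondrial DNA, had -0.18 (SE 0.10) and Gabpa, an ETS factor of respiratory genes, had -0.27 (SE 0.15). Neither passed the test (adjusted p = 0.854 and 0.855 in limma's test). The Gabpa probe was dim, with means of 5.74 in ethanol-exposed samples and 6.02 in controls.

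Of the tested genes outside the set, the 5 whose level most followed the members' mean deviation over the 12 arrays were Glrx2, a mitochondrial glutaredoxin, Kcnu1, Sdhaf4, an assembly factor of complex II, Fam220a and Cdip1, with Pearson's r of 0.864 to 0.893. They were picked as the highest of all tested genes and share arrays and normalization with the members, so r is a description. Among the members themselves r with their mean, which includes the probe itself, ran from -0.23 to 0.93. The median r over 1081 pairs of probes was 0.238.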

How the data were processed

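Total RNA of 12 caudate putamen samples was hybridised to Illumina bead arrays. Per the file headers, the main deposited table pairs a linear, non-normalized intensity with a detection p-value for each probe on each array. The authors also deposited a normalized intensity table. GenomeStudio 1.9.0 is named in the submitters' processing notes, and its background setting is not given in the sources used here. Normalization used neqc (limma 3.58.1, R 4.3.3), which corrects background through the detection p-values, adds an offset (16), equalises quantiles and takes log2. Probes detected at 0.05 on 6 or more arrays (20296 of 45281) were fitted with lmFit and eBayes, without covariates, and p-values adjusted by Benjamini-Hochberg over all of them, two-sided, at 0.05. In GEO's platform annotation, 34885 probes carry 1 symbol, 18 carry several and 10378 have no symbol. Raw median intensities were 136.1 to 153.2 and detected probes 19452 to 21949 per array. The number of arrays limits the precision. Even the closest 2 arrays lay 0.272 log2 units apart (root mean square), and none was treated as a duplicate. The fit was tested on simulated data. Values were given in full for the 6 probes with the smallest p in each direction and for genes whose probes differed in sign or by over 0.2, and for the 2 genes of smallest p per pathway list. Members and lists were chosen with earlier results of these data known. Alternatives were other background corrections, normalizations, filters and eBayes settings, chip or replicate number as a block, each chip alone, array weights and each array left out. Fits without the arrays that stood apart, and chip under other normalizations, were added after seeing the data.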

Additional observations from a re-analysis of the deposited data

Results flagged for a closer look

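For each of the 47 probes and for the members' mean deviation, both groups of 6 were searched for a single value standing apart, judged by its gap to its neighbour over the range. This found 6 among 96 groups, and about 1 in 20 is flagged by chance. High values were control 1 for the brighter Ndufa3 probe (12.75 against 12.47 to 12.55), ethanol 3 for Ndufb5 (9.62 against 9.08 to 9.26) and control 2 for the Ndufv3 probe assigned to NM_001083891 (12.54 against 12.26 to 12.33). Low values were control 4 for the brighter Ndufb6 probe (12.29 against 12.38 to 12.42), control 5 for the dimmer Ndufc1 probe (10.30 against 10.55 to 10.63) and ethanol 4 for 1 Ndufs4 probe (10.39 against 10.83 to 11.03).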

How the results depend on the processing

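No complex I probe passed adjustment under any of 29 alternatives, nor did any group by chip test where it was run. The count with a log2 difference above 0 lay between 27 and 40 of 47 and the median between 0.00388 and 0.0616, the extremes coming from leaving out ethanol 3, control 2 and ethanol 4. The count at an unadjusted p under 0.05, 0 as reported, was 4 without background correction, with the deposited normalized table and with trend and robust eBayes, namely probes of Ndufa5, Ndufa11, Ndufa7 and Ndufa3, where 5.91%, 5.91% and 5.74% of all tested probes passed. It was 2 without a filter (5.34% of all) and with replicate number as a block (7.02%), and 1 with an offset of 50 (5.85%), with array weights (5.93%), on chip 1 alone (6.45%) and on chip 2 alone (10.1%). It was 0 to 4 over the arrays left out in turn, where 4.99% to 7.54% of all passed. Without ethanol 3 and ethanol 4 it was 3 (5.53% of all), and without those and control 2 and control 4 it was 1 (5.11%), where 2 probes had groups that did not overlap (2.76% of all). On chip 1 alone 7 probes did not overlap (12.6% of all tested probes) and on chip 2 alone 4 (16.3%). The cause of these moves was not tested. Signs turned for 8 of 17 probes described in full. On chip 1 alone they were the dimmer Ndufc2 probe (0.184), Ndufb9 (0.114), Ndufs7 (0.0549), the dimmest Ndufv3 probe (-0.0292) and the brighter Ndufs6 probe (-0.0824), and on chip 2 alone the dimmer Ndufs6 probe (0.0524). The brighter Ndufs6 probe, near 0, was -0.0149 under median scaling, -0.0122 with array weights and -0.00491 without ethanol 3 and ethanol 4. Without those and control 2 and control 4, Ndufb9 was 0.0131 and the brighter NM_030087 probe of Ndufv3 0.0410. With 1 array left out in turn, the brighter Ndufs6 probe ran from -0.0218 to 0.0302 and the dimmer from -0.118 to 0.0159, the NM_001083891 probe of Ndufv3 from -0.0603 to 0.00840 and its brighter NM_030087 probe from -0.0547 to 0.00954. Values kept their sign but moved by over 1.5 times with 1 array left out for Ndufa12 (-0.0623 to -0.0280), Ndufs7 (-0.0858 to -0.0266), the dimmer Ndufc2 probe (-0.159 to -0.0342) and the dimmest Ndufv3 probe (0.0674 to 0.170). The same held for Ndufb11 (-0.355 to -0.133), Ndufb9 (-0.156 to -0.00543) and the dimmer Ndufa5 probe (0.182 to 0.377). Replicate numbers were not taken as pairs in the main fit. Deviations of same-numbered samples correlated at -0.14 to 0.28. Same-numbered samples also shared a chip and other pairs were not compared, so these values cannot decide whether the numbers mark pairs. Differences of dim probes near background depended on the background correction and the offset. Ndufb11 was -0.270 as reported, -0.168 with an offset of 50 and -0.0847 without background correction. The dimmer Ndufc2 probe was -0.0893, -0.0493 and -0.0256 in the same order, so the size of both differences is uncertain.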
